A study of Mus musculus with 6 samples.

Results

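The genes of the proteasome were examined in RNA sequencing libraries of mouse group 3 innate lymphoid cells (ILC3s), lymphocytes of mucosal tissue that lack antigen receptors and release interleukin 22. The members were the protein-coding genes whose symbol begins with Psm, a letter from a to g and a digit. The deposited table of 55401 genes held 50 of them, and 49 had enough counts to be tested among 18253 genes. Cells of 3 libraries had been treated beforehand with PEox and cells of 3 libraries with vehicle. Both groups carried the wild-type genotype, and the labels place the cells in the lamina propria of the small intestine. PEox is not spelled out in the labels. In work on ferroptosis, a cell death driven by lipid peroxidation, the name usually stands for oxidised phosphatidylethanolamine. The protocol text speaks of pups, while the sources used here give no dose, exposure time, exact age or number of animals behind a library. Whether the 3 libraries of a group came from separate animals or cultures was not given either, and the p-values therefore describe the spread of these libraries alone, which may be technical.

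The proteasome is the cell's main protease for proteins tagged with ubiquitin. Its 20S core is a barrel of alpha rings, which gate the entrance, and beta rings, in which the subunits beta1, beta2 and beta5 cut peptide bonds. The 19S particle, made of a base of ATPases and scaffold proteins and a lid, caps the barrel, binds ubiquitin chains, removes them and unfolds the substrate. Lymphocytes and cells exposed to interferon gamma exchange the catalytic subunits for beta1i, beta2i and beta5i. This form, the immunoproteasome, cuts peptides suited to MHC class I, and the PA28 activator, which can cap the barrel in place of 19S, is induced by the same cytokine. When proteasome capacity falls short, the transcription factor NRF1 (gene Nfe2l1) raises the genes of 20S and 19S subunits together through antioxidant response elements.

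Total counts were 56252806 to 57532484 in PEox libraries and 59524577 to 66849230 in vehicle libraries. Levels are given in CPM, counts per 1000000 counts of a library whose total was scaled by its TMM factor. The protocol text mentions epithelial cells sorted as EpCAM-positive and CD45-negative, whereas the cell type label names ILC3s, so markers of both were summed. The 20 ILC3 markers, of which 9 were lower and 5 higher in PEox, summed to 8919 to 8962 CPM in PEox and 15181 to 15409 CPM in vehicle. The most abundant of these markers weigh most in the sum, and 6 of the 20 did not pass. Over all genes tested 18.8% were lower and 18.3% higher. The 16 epithelial markers summed to 60.7 to 68.9 CPM in PEox and 99.3 to 113 CPM in vehicle, with 3 of the 9 tested lower. Among them Epcam had 28.5, 35.8 and 31.6 CPM in the PEox libraries and 48.6, 52.3 and 55.6 CPM in the vehicle libraries.

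Proteasome transcripts were lower in PEox taken as a family, and the decrease was uneven. The 3 immunoproteasome genes had a median log2 fold change of -0.97, against -0.46 for the 14 constitutive 20S genes and -0.15 for the 17 genes of 19S, which ranged from lower to higher. The ranges of these sets overlapped, since Psmb9 of the immunoproteasome (-0.70) lay beside the constitutive Psmb4 (-0.71) and Psmb6 (-0.65). Of 49 tested members, 28 were lower and 5 higher at an edgeR adjusted p under 0.05, and 16 did not pass. Over all 18253 genes 37.1% were called, 18.8% as lower and 18.3% as higher. The median log2 fold change of the members was -0.35, against 0.00 for all genes tested. The 49 genes summed to 11220.2, 11157 and 10715 CPM in PEox libraries 1 to 3, against 14111, 14099 and 14299 CPM in vehicle libraries 1 to 3. Each PEox library thus lay below each vehicle library. Groups did not overlap for 39 members, 32 of them lower and 7 higher in PEox, while 50.6% of all genes were apart, 26.5% with PEox lower and 24.1% with PEox higher.

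These counts depend on how libraries are scaled and on expression level. Under scaling by library size alone, all genes had a median of 0.14 and the members one of -0.21, and 24 members were lower and 10 higher. All genes then split into 2715 lower and 4411 higher, against 3438 and 3337. Abundant genes were called more often. With at least 5 CPM required in 3 libraries, 32 of 48 members were lower and 5 higher, against 29.6% and 30.9% of the 10743 genes kept. Replicates were tight, with a median coefficient of variation of 4.60% in PEox and 3.73% in vehicle over the 48 members with a mean of at least 5 CPM in each group.

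Genes listed as markers of other cells also differed between the same libraries. The 10 B and plasma cell genes summed to 45.5 to 47.9 CPM in PEox and 307 to 327 CPM in vehicle, with 9 of 10 lower. The 10 ILC1 and natural killer cell genes summed to 203 to 220.3 CPM in PEox and 549 to 574 CPM in vehicle, with 9 of 10 lower. Myeloid (12 genes), T cell (10) and mast cell and basophil (10) markers summed to 125 to 153, 77.1 to 91.6 and 21.7 to 28.6 CPM in PEox, and to 249 to 267, 140.0 to 154 and 160.0 to 165 CPM in vehicle. They had 6, 5 and 6 genes lower in that order, and 1 T cell gene, Cd4, higher. Erythroid genes (9) summed to 5147 to 5825 CPM in PEox and 2784 to 2827 CPM in vehicle, with 5 higher. The shares over all genes tested were 18.8% lower and 18.3% higher. Of the markers listed, Alpi alone was at 0 in all libraries. Whether these transcripts came from other cells or from the ILC3s themselves was not tested. The part of such cells in the levels of proteasome genes was not tested either. In bulk RNA, fewer cells of a type that uses a gene and less RNA of that gene per cell cannot be told apart.

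**Figure D1:**
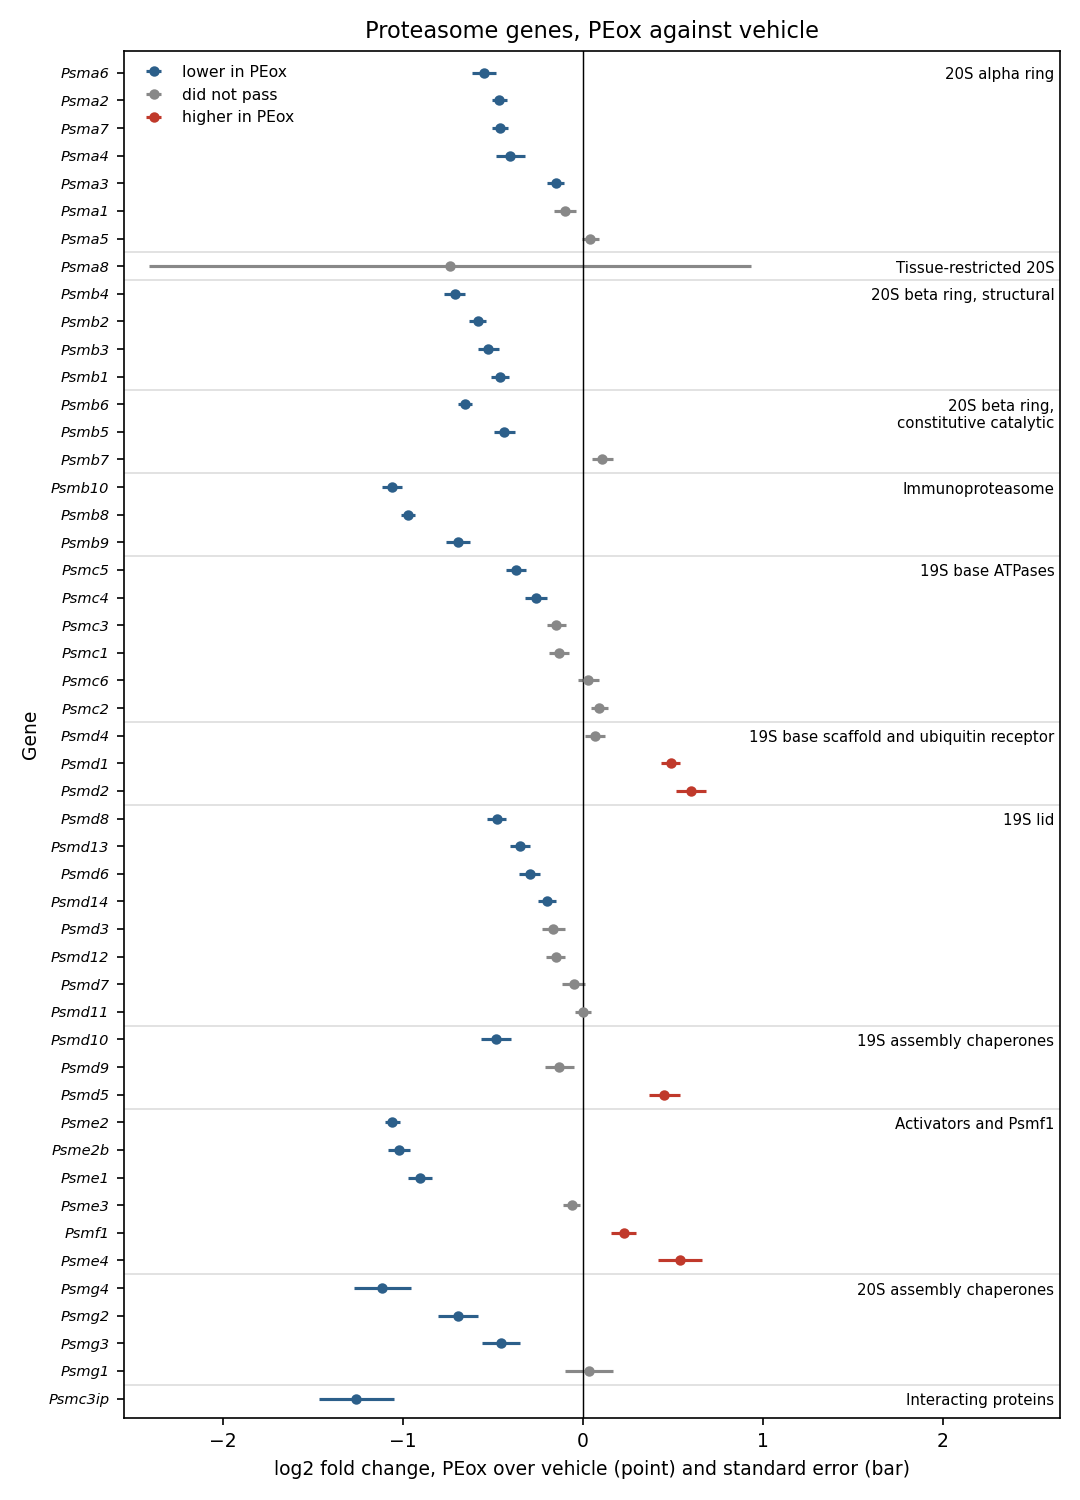
Log2 fold change of PEox over vehicle (x axis) for the 49 tested proteasome genes (y axis), grouped by role; points are edgeR estimates from 3 PEox and 3 vehicle libraries, bars are standard errors, and colours show the edgeR call at an adjusted p under 0.05. Psmb8, Psmb10, Psme1, Psme2 and Psme2b lie near -1 and Psmb9 at -0.70, beside Psmb4 and Psmb6, whereas Psmd1, Psmd2, Psmd5, Psme4 and Psmf1 are the 5 members called higher.

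All 3 immunoproteasome genes fell. Psmb8 encodes beta5i, the chymotrypsin-like subunit that replaces beta5. Its level was 629.8, 628 and 591 CPM in PEox libraries 1 to 3, against 1210.3, 1202 and 1215 CPM in vehicle libraries 1 to 3. The PEox values lay close together at about 51.0% of vehicle, far from the vehicle values, with a log2 fold change of -0.97 (adjusted p = 1.64e-06 by edgeR, SE 0.04). Psmb10, the gene of beta2i, had 235, 251 and 219.9 CPM in PEox libraries 1 to 3, against 485, 492 and 493 CPM in vehicle libraries 1 to 3. No PEox library came near a vehicle library, and the log2 fold change was -1.06 (adjusted p = 5.07e-06 by edgeR, SE 0.05). Psmb9, which encodes beta1i, had 78.6, 73.9 and 72.6 CPM in PEox libraries 1 to 3, against 114, 128 and 123 CPM in vehicle libraries 1 to 3. Its groups were also apart, with a log2 fold change of -0.70 (adjusted p = 0.000105 by edgeR, SE 0.07). The summed level of the 3 genes was 883 to 953 CPM in PEox and 1809.9 to 1831 CPM in vehicle, or 50.9% of vehicle. When trends with transcript length and GC content were removed from each library, the log2 fold changes were -0.80 for Psmb8, -0.80 for Psmb10 and -0.46 for Psmb9, all still called lower.

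Their constitutive counterparts did not move as one. Psmb6, the gene of the caspase-like beta1 subunit, had 403, 387 and 388 CPM in PEox libraries 1 to 3, against 608, 631 and 615 CPM in vehicle libraries 1 to 3, and fell with a log2 fold change of -0.65 (adjusted p = 1.06e-05 by edgeR, SE 0.04). With the length and GC trend removed it was -0.24 and still called lower. Psmb5, which encodes the chymotrypsin-like beta5, had 298, 308 and 286 CPM in PEox libraries 1 to 3, against 379.7, 395 and 433 CPM in vehicle libraries 1 to 3. Its log2 fold change was -0.44 (adjusted p = 0.000658 by edgeR, SE 0.06), which shrank to -0.06 and lost its call with the length and GC trend removed (edgeR adjusted p = 0.502). Psmb7, the trypsin-like beta2 gene, did not pass, at 118, 115 and 111 CPM in PEox libraries 1 to 3, against 111, 103 and 106 CPM in vehicle libraries 1 to 3. All PEox values stood above all vehicle values, by less than the rounding for PEox library 3 and vehicle library 1, and its log2 fold change of 0.11 (adjusted p = 0.19 by edgeR, SE 0.06) became a call of higher at 0.24 under library size scaling and at 0.33 when the trend was removed.

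**Figure D2:**
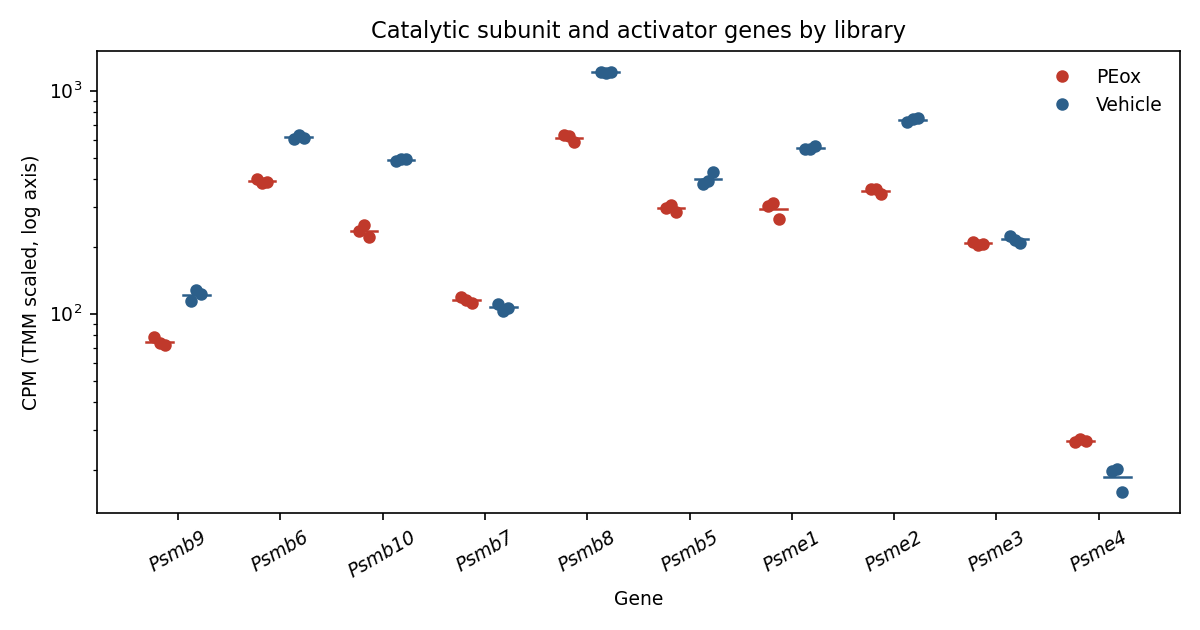
CPM (y axis, log scale) of the catalytic subunit genes, each immunoproteasome gene beside its constitutive counterpart, and of the activator genes (x axis) in 3 PEox and 3 vehicle libraries; points are libraries and lines are group means. Psmb8, Psmb10, Psme1 and Psme2 lie far lower in PEox, whereas Psmb7 and Psme3 lie close together in the groups.

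The ratio of an immunoproteasome gene to its counterpart within a library does not depend on library scaling, so it was computed from counts per transcript length. For the beta5 pair, Psmb8/Psmb5, the ratio was 1.17, 1.13 and 1.14 in PEox libraries 1 to 3, against 1.76, 1.68 and 1.55 in vehicle libraries 1 to 3. Psmb8 thus made up 53.4 ± 0.46% of the pair in PEox and 62.4 ± 1.52% in vehicle (SD, n = 3 each). The beta2 pair, Psmb10/Psmb7, differed most, at 1.76, 1.93 and 1.75 in PEox libraries and 3.89, 4.22 and 4.12 in vehicle libraries. In that pair Psmb10 held 64.4 ± 1.25% in PEox and 80.3 ± 0.67% in vehicle (SD, n = 3 each). The beta1 pair, Psmb9/Psmb6, had ratios of 0.115, 0.113 and 0.111 in PEox libraries and 0.111, 0.120 and 0.118 in vehicle libraries, which overlapped. The difference in log2 ratio, PEox minus vehicle, was -0.54 for the beta5 pair, -1.17 for the beta2 pair and -0.04 for the beta1 pair. Two-sided exact permutation tests over the libraries gave p = 0.1, 0.1 and 0.3 in that order, and 0.15, 0.15 and 0.3 after Benjamini-Hochberg adjustment over the 3 pairs. With 3 libraries against 3 the smallest p possible is 0.1, so none of the pairs could pass. The ratios are not corrected for trends with length and GC content. Without those trends the log2 fold changes were -0.46 for Psmb9 and -0.24 for Psmb6. Because lengths come from 1 annotated transcript of each gene, the ratio within a pair is less certain than its difference between groups.

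**Figure D3:**
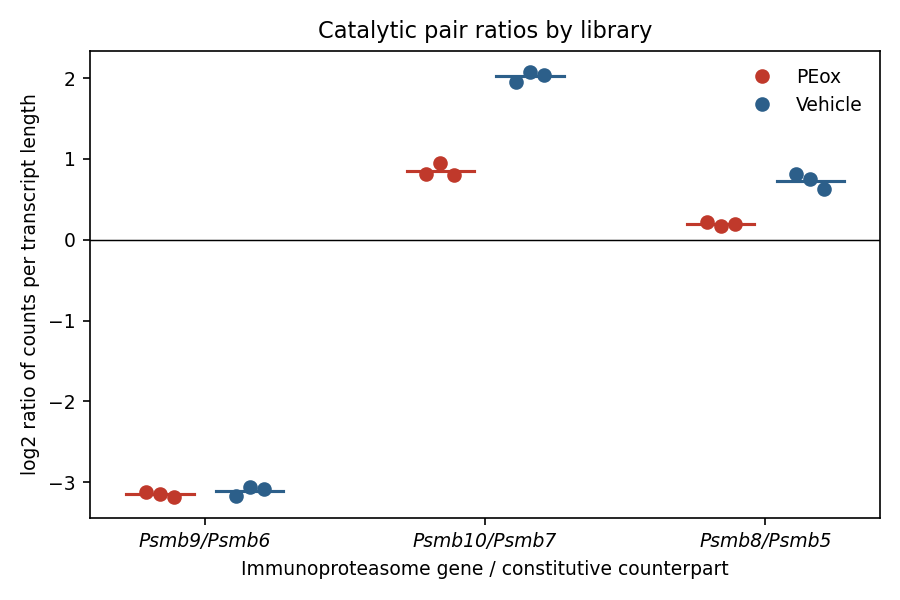
Log2 ratio of counts per transcript length (y axis) for each immunoproteasome gene over its constitutive counterpart (x axis); points are the 3 PEox and 3 vehicle libraries, lines are group means, and 0 marks equal levels. The beta5 and beta2 pairs are apart between the groups, with PEox lower, while the beta1 pair overlaps near -3.

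Promoter windows of RefSeq, from 250 bases before to 50 bases after a start site (build GRCm38.p6), were found for 42 of the 50 members. They are shown for the beta5 and beta1 pairs, whose ratios are compared above, and for Psme1 and Psme4, activator genes called in opposite directions. Capitals mark matches to any of 5 motifs, a match on the opposite strand showing as its reverse complement. The motifs are TGACNNNGC (the core of the antioxidant response element), GAAA repeated after a gap of 2 bases (the interferon-stimulated response element), TTCNNNGAA (the gamma-activated site), CCAAT (the CCAAT box) and AAGATGGC (a form of the YY1 motif).
Psmb8: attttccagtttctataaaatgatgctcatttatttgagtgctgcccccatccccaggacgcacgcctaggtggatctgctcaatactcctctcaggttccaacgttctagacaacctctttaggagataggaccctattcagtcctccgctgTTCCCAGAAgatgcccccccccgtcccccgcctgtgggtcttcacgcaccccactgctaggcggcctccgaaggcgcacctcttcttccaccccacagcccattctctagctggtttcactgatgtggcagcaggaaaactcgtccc
Psmb5: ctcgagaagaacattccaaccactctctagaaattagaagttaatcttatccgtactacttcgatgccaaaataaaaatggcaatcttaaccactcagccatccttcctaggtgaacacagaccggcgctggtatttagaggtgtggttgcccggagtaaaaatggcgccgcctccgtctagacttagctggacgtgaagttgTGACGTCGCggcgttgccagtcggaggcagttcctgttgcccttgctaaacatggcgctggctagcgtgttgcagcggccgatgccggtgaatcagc
Psmb9: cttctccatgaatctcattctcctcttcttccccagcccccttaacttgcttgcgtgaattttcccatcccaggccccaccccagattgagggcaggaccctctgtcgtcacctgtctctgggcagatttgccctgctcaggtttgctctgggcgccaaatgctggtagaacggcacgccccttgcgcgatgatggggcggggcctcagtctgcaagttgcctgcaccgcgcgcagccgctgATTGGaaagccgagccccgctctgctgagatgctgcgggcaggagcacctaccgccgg
Psmb6: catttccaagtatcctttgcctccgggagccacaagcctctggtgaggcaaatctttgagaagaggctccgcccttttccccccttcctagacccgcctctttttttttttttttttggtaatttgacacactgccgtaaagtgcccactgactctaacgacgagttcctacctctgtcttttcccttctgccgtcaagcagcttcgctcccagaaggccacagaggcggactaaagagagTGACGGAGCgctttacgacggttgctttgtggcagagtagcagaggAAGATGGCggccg
Psme1: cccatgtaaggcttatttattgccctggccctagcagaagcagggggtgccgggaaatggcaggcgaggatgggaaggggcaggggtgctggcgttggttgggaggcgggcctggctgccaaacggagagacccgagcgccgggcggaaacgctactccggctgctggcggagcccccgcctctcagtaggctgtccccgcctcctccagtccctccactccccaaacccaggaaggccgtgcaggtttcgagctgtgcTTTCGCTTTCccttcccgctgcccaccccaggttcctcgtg
Psme4: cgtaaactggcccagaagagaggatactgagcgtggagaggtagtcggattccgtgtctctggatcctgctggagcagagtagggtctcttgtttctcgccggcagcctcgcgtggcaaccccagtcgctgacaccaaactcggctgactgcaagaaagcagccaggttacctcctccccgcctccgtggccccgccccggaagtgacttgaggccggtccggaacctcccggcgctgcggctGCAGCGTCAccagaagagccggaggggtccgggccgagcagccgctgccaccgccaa
These windows lie at chr17:34197945-34198244 on the plus strand (Psmb8), chr14:54617946-54618245 on the minus strand (Psmb5), chr17:34187281-34187580 on the minus strand (Psmb9), chr11:70525107-70525406 on the plus strand (Psmb6), chr14:55578244-55578543 on the plus strand (Psme1) and chr11:30771525-30771824 on the plus strand (Psme4). A match to the response element core stood in Psmb5, Psmb6 and Psme4, of which Psmb5 and Psmb6 fell and Psme4 rose. Psmb8 held a match to the gamma-activated site and Psme1 to the interferon-stimulated element, and both genes were lower in PEox. The gamma-activated site was also matched in Psmd2, the member with the highest fold change, and in Psmg1, which did not pass. It was held by 1 of 25 lower and 1 of 5 higher members with a window. The windows of Psmb9, Psmb10 and Psme2 held neither interferon motif. The interferon-stimulated element was held by 3 of 25 lower and 0 of 5 higher members, and by Psmd4 and Psmd9, which did not pass. The response element core was held by 2 of 25 lower and 1 of 5 higher members. The Psmb9 window held the CCAAT letters, and that of Psmb6 also the YY1 form. Over the 42 members, the response element core was found in 6 (14.3%), against 14.0% of 27025 genes with a window. The interferon-stimulated element was found in 5 members (11.9%, against 3.99% of all genes), the gamma-activated site in 3 (7.14%, against 9.55%), the CCAAT box in 15 (35.7%, against 41.1%) and the YY1 form in 3 (7.14%, against 3.19%). A match describes letters in a window and is no evidence of binding.

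Structural genes of the 20S core were mostly lower. In the alpha ring, whose subunits gate the barrel, 5 of 7 genes fell and none rose, with a median log2 fold change of -0.40. Psma6, lowest of the ring by fold change, had 250.2, 256 and 223 CPM in PEox libraries 1 to 3, against 335, 360.1 and 372 CPM in vehicle libraries 1 to 3. The groups were apart, and its log2 fold change was -0.55 (adjusted p = 0.000355 by edgeR, SE 0.07). Psma5, highest by fold change, had 229.8, 219.5 and 221 CPM in PEox libraries 1 to 3, against 214, 214 and 223 CPM in vehicle libraries 1 to 3, with overlapping groups and a log2 fold change of 0.04 (adjusted p = 0.552 by edgeR, SE 0.05). Library size scaling (0.18) and removal of the length and GC trend (0.25) each gave a call of higher. Psma2, Psma7 and Psma4 fell with log2 fold changes of -0.46, -0.46 and -0.40. When the trend was taken out these were -0.61, -0.20 and -0.24, and Psma4 lost its call (edgeR adjusted p = 0.0556). Psma3 fell slightly, at -0.15 (adjusted p = 0.0354 by edgeR, SE 0.05), and lost its call when either PEox library 1 or 3 or any vehicle library was left out (edgeR adjusted p from 0.0633 to 0.0995). Under RLE scaling the adjusted p of Psma3 by edgeR was 0.0512, and under library size scaling its log2 fold change was -0.016 (edgeR adjusted p = 0.835). Removal of the length and GC trend moved Psma3 to -0.28, called lower (edgeR adjusted p = 0.00205). Psma1 did not pass, at -0.10.

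The 4 structural beta genes all fell, with a median of -0.55. Psmb4, lowest by fold change, had 252, 287 and 273 CPM in PEox libraries 1 to 3, against 422, 452 and 456 CPM in vehicle libraries 1 to 3, without overlap, and a log2 fold change of -0.71 (adjusted p = 5.06e-05 by edgeR, SE 0.06). Psmb1, highest by fold change, had 249.7, 255 and 233 CPM in PEox libraries 1 to 3, against 328, 336 and 352 CPM in vehicle libraries 1 to 3, again without overlap, and a log2 fold change of -0.46 (adjusted p = 0.000264 by edgeR, SE 0.05). Psmb2 and Psmb3 had log2 fold changes between them, -0.59 and -0.52. Taking out the trend left them at -0.23 and -0.11. Psmb3 then lost its call (edgeR adjusted p = 0.132), and the median of the 4 genes was -0.31. The 14 genes of the constitutive core summed to 3966 to 4210.3 CPM in PEox and 5457.5 to 5679 CPM in vehicle, or 74.1% of vehicle, compared with 50.9% for the immunoproteasome genes. Per transcript length the core genes were spread widely. Alpha and structural beta proteins occur in equal numbers in the barrel, whereas beta1, beta2 and beta5 can be exchanged for their immunoproteasome counterparts. Psmb3 had the highest level, 589 CPM per kb in PEox and 847 CPM per kb in vehicle, and Psmb7 the lowest, 99.03 CPM per kb in PEox and 91.9 CPM per kb in vehicle. With the length and GC trend removed, 8 of the 14 were called lower and 2, Psma5 and Psmb7, higher.

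The 19S genes went in both directions. Their summed level was 4398 to 4517 CPM in PEox and 4544 to 4589.5 CPM in vehicle, or 98.0% of vehicle. A difference this small depends on TMM scaling. The sum was not computed under library size scaling, where the median log2 fold change of all genes was 0.14. The median log2 fold change of the 17 genes was -0.15, with 6 lower, 2 higher and 9 that did not pass. Of all genes tested 18.8% were lower and 18.3% higher, or 29.6% and 30.9% of those with at least 5 CPM in 3 libraries. Both genes that rose encode the large scaffold proteins of the base, on which ubiquitin receptors and shuttle factors dock. At 3112 (Psmd1) and 2961 (Psmd2) bases, their transcripts were also the longest of the 17. Psmd2, which encodes Rpn1, had 676, 597 and 693 CPM in PEox libraries 1 to 3, against 462, 452 and 382 CPM in vehicle libraries 1 to 3. Every PEox library exceeded every vehicle library, and the log2 fold change of 0.60 (adjusted p = 0.000759 by edgeR, SE 0.08) was the highest of all members. Psmd1, the gene of Rpn2, had 307, 319 and 314 CPM in PEox libraries 1 to 3, against 218, 237 and 215 CPM in vehicle libraries 1 to 3. Its groups were apart too, with a log2 fold change of 0.49 (adjusted p = 0.000185 by edgeR, SE 0.05). Both remained called higher with the length and GC trend removed, at 0.50 and 0.36. Psmd4, which encodes the ubiquitin receptor Rpn10, did not pass, at 394, 432 and 376 CPM in PEox libraries 1 to 3, against 384, 379.9 and 382 CPM in vehicle libraries 1 to 3. The groups overlapped, and the log2 fold change was 0.07 (adjusted p = 0.391 by edgeR, SE 0.06). It was called higher with library size scaling (0.21) and with the trend removed (0.21).

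Among the 6 ATPases of the base, the motor that unfolds substrates, 2 fell and 4 did not pass. Of all genes with at least 5 CPM in 3 libraries, 29.6% were lower. Psmc5, lowest by fold change, had 216, 196 and 216 CPM in PEox libraries 1 to 3, against 277, 266 and 271 CPM in vehicle libraries 1 to 3, with no overlap, and a log2 fold change of -0.37 (adjusted p = 0.000904 by edgeR, SE 0.05). Psmc2, highest by fold change, had 246, 244 and 230.0 CPM in PEox libraries 1 to 3, against 227, 223 and 227 CPM in vehicle libraries 1 to 3. Its groups were apart with PEox higher, but the log2 fold change of 0.09 (adjusted p = 0.173 by edgeR, SE 0.05) did not pass, unlike with library size scaling (0.23) or with the trend removed (0.18). Psmc4 fell with a log2 fold change of -0.26, a call lost without vehicle library 1 (edgeR adjusted p = 0.0509) and under library size scaling (-0.12, edgeR adjusted p = 0.149). With the trend removed neither Psmc4 nor Psmc5 was called. Psmc1, Psmc3 and Psmc6 had log2 fold changes of -0.13, -0.15 and 0.03 and did not pass. Psmc3 was called lower without PEox library 1 (edgeR adjusted p = 0.0401) and Psmc1 without PEox library 2 (0.034).

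In the lid, which holds the deubiquitinase, 4 of 8 genes fell and 4 did not pass, against 29.6% lower of all genes with at least 5 CPM. Psmd8, lowest by fold change, had 261, 263 and 248 CPM in PEox libraries 1 to 3, against 353, 345 and 378 CPM in vehicle libraries 1 to 3, and its groups were apart, with a log2 fold change of -0.48 (adjusted p = 0.000188 by edgeR, SE 0.05). Psmd11, highest by fold change, had 307, 303 and 302 CPM in PEox libraries 1 to 3, against 295, 318 and 301 CPM in vehicle libraries 1 to 3, with overlapping groups and a log2 fold change of -0.0012 (adjusted p = 0.988 by edgeR, SE 0.04), which was 0.14 and a call of higher (adjusted p = 0.0432) under library size scaling. Psmd13 and Psmd6 fell with log2 fold changes of -0.35 and -0.30. Psmd14, which encodes the deubiquitinase Rpn11, fell with a log2 fold change of -0.20, and lost its call without vehicle library 1 (edgeR adjusted p = 0.0522) or 2 (0.0509). Under library size scaling Psmd14 (-0.06, edgeR adjusted p = 0.358) and Psmd6 (-0.16, edgeR adjusted p = 0.0604) were not called. Psmd3, Psmd7 and Psmd12 did not pass, at -0.16, -0.05 and -0.15. Without PEox library 2, Psmd3 (edgeR adjusted p = 0.0358) and Psmd12 (0.0435) were called lower. With the trend removed, only Psmd8 and Psmd13 of the 17 subunit genes of 19S were called lower.

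Activators divided by kind. Psme1 and Psme2 encode the alpha and beta subunits of PA28, which form a ring together, and both fell. Psme2 had 360.5, 361 and 345 CPM in PEox libraries 1 to 3, against 721, 748 and 754 CPM in vehicle libraries 1 to 3. The PEox values lay far below every vehicle value, and the log2 fold change was -1.06 (adjusted p = 1.48e-06 by edgeR, SE 0.04). Psme1 had 305, 315 and 265 CPM in PEox libraries 1 to 3, against 547, 545 and 565 CPM in vehicle libraries 1 to 3, with no overlap and a log2 fold change of -0.91 (adjusted p = 2.67e-05 by edgeR, SE 0.07). Psme2b, a copy of Psme2, followed at -1.02, but reads of the copies may be shared, so its level is uncertain. Psme3 encodes PA28 gamma, a nuclear activator that forms rings of its own. It had 209.9, 204 and 206 CPM in PEox libraries 1 to 3, against 224, 215 and 208 CPM in vehicle libraries 1 to 3, with overlapping groups and a log2 fold change of -0.06 (adjusted p = 0.38 by edgeR, SE 0.05), which was 0.08 and not called under library size scaling. Psme4, the gene of the activator PA200, had 26.5, 27.3 and 26.9 CPM in PEox libraries 1 to 3, against 19.7, 20.04 and 15.9 CPM in vehicle libraries 1 to 3. PEox was higher in every library, with a log2 fold change of 0.54 (adjusted p = 0.00878 by edgeR, SE 0.12), or 0.28 and no call with the length and GC trend removed (edgeR adjusted p = 0.14). Psmf1 encodes PI31, first described as an inhibitor of the 20S core. It had a log2 fold change of 0.23 (adjusted p = 0.0367 by edgeR, SE 0.07), a call of higher that was lost when either PEox library 1 or 2 or any vehicle library was left out (edgeR adjusted p from 0.0705 to 0.129) and with the trend removed (0.04).

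Dedicated chaperones assemble the particle and are not part of it. Of the 4 chaperones of the 20S core, 3 fell. Psmg4, lowest by fold change, had 16.96, 16.2 and 12.9 CPM in PEox libraries 1 to 3, against 39.5, 30.1 and 30.3 CPM in vehicle libraries 1 to 3. The groups were apart, and the log2 fold change was -1.12 (adjusted p = 0.000806 by edgeR, SE 0.16). Psmg1, highest by fold change, had 17.98, 23.8 and 23.05 CPM in PEox libraries 1 to 3, against 21.7, 20.2 and 21.4 CPM in vehicle libraries 1 to 3, with overlap and a log2 fold change of 0.03 (adjusted p = 0.873 by edgeR, SE 0.13). Psmg2 and Psmg3 fell with log2 fold changes of -0.69 and -0.45, the second of which was -0.07 and not called with the trend removed. Among the chaperones of the 19S base, Psmd10 fell at 74.8, 67.7 and 61.8 CPM in PEox libraries 1 to 3, against 90.8, 100.1 and 94.4 CPM in vehicle libraries 1 to 3, with a log2 fold change of -0.48 (adjusted p = 0.0025 by edgeR, SE 0.08). Psmd5 was the opposite, at 229, 258 and 245 CPM in PEox libraries 1 to 3, against 189, 188 and 156 CPM in vehicle libraries 1 to 3. Its groups were apart with PEox higher, and the log2 fold change was 0.45 (adjusted p = 0.0033 by edgeR, SE 0.08). With the trend removed Psmd5 lay at 0.23 and was not called (edgeR adjusted p = 0.0749). Psmd9 did not pass, at -0.13.

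The remaining members were rare. Psma8, an alpha subunit gene of the testis, had at most 0.65 CPM in any library and did not pass, with a log2 fold change of -0.74 (adjusted p = 0.782 by edgeR, SE 1.67). Psmb11, which encodes the thymic subunit beta5t, had 8 counts in PEox library 2, 1 count in each vehicle library and none elsewhere, and was not tested. Psmc3ip fits the naming rule but encodes a partner protein of an ATPase subunit that acts in meiotic recombination, and is no subunit. It had 5.59, 8.27 and 6.38 CPM in PEox libraries 1 to 3, against 15.9, 19.3 and 13.3 CPM in vehicle libraries 1 to 3, without overlap, and the lowest log2 fold change of all members, -1.26 (adjusted p = 0.00192 by edgeR, SE 0.21).

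Fold change followed transcript length among the members, as it did over all genes. Across the 49 genes, which are not independent replicates, Spearman's rho between the log2 fold change and length was 0.60, against 0.32 across 18230 tested genes with a known length. Among the members rho was still 0.30 with the length and GC trend removed. All 8 members under 1000 bases fell, with a median log2 fold change of -0.62, in a class where 28.7% of all genes were lower and the median of all genes was -0.47. Between 1000 and 2000 bases, 18 of 29 members fell and none rose, against 29.5% lower and 6.34% higher of all genes. Over 2000 bases, 2 of 12 members fell and 5 rose, against 12.5% lower and 26.6% higher of all genes. All 5 members called higher were thus over 2000 bases. The immunoproteasome genes, of 1311 to 1628 bases, had log2 fold changes of -1.06 to -0.70 in a length class with a median of -0.23 over all genes. With the length and GC trend removed, 20 members were lower and 6 higher, against 18.2% and 14.0% of all genes, and the members' median was -0.15. The 20S constitutive genes then had a median of -0.23, the 19S genes -0.06 and the immunoproteasome genes -0.80.

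**Figure D4:**
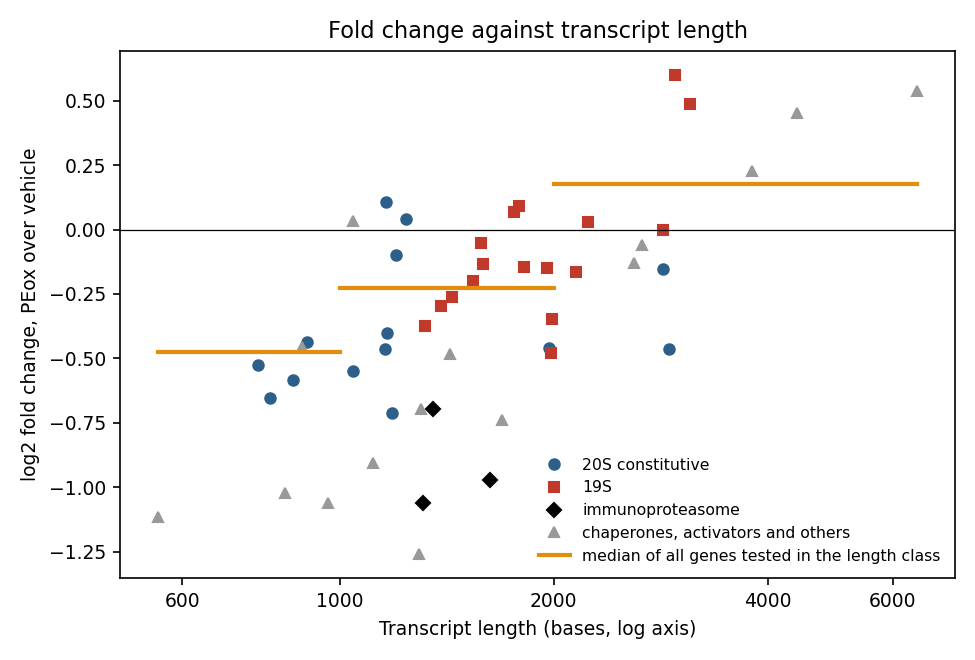
Log2 fold change of PEox over vehicle (y axis) against transcript length in bases (x axis, log scale) for the 49 tested members, marked by role; orange lines are the medians of all genes tested in 3 length classes (-0.47, -0.23 and 0.18). The 3 immunoproteasome genes lie below the line of their class, and the 5 members called higher are longer than 2000 bases.

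Genes that act with the proteasome were then read from the same fit. NRF1 and the VCP segregase, which pulls NRF1 out of the endoplasmic reticulum membrane before it is cleaved, were covered by 11 genes, of which 8 rose and 1 fell. Their median log2 fold change was 0.68, against 0.00 for all genes tested, and 0.47 when the trend was taken out. Nfe2l1 itself had 60.2, 58.8 and 59.03 CPM in PEox libraries 1 to 3, against 34.1, 33.1 and 39.6 CPM in vehicle libraries 1 to 3. PEox was higher without overlap, and the log2 fold change was 0.74 (adjusted p = 0.000402 by edgeR, SE 0.09). Vcp had 736, 733 and 748 CPM in PEox libraries 1 to 3, against 475, 487 and 417 CPM in vehicle libraries 1 to 3, likewise apart, with a log2 fold change of 0.68 (adjusted p = 6.78e-05 by edgeR, SE 0.06). Mafg and Mafk encode small MAF proteins, the DNA-binding partners of NRF1 and NRF2, and had log2 fold changes of 0.96 (adjusted p = 2.76e-05 by edgeR, SE 0.07) and 0.86 (adjusted p = 0.000195 by edgeR, SE 0.09). Ddi2, the protease that activates NRF1, and Ngly1, the enzyme that removes its sugars, rose with log2 fold changes of 0.79 and 0.40, whereas the third small MAF gene, Maff, fell with -1.63. Of the 31 subunit genes of the constitutive 20S and of 19S, 17 fell and 2 rose in the same libraries, or 10 and 6 with the trend removed. Over all genes 18.8% were called lower and 18.3% higher, or 18.2% and 14.0% with the trend removed.

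Other genes of proteins in or bound to the proteasome went both ways, with 5 of 16 higher, 4 lower and 7 not passing. Their median log2 fold change was 0.06, or -0.09 with the trend removed. Among all genes of at least 5 CPM in 3 libraries, 29.6% were lower and 30.9% higher. Pomp encodes the maturation factor that is destroyed inside each new 20S core and also assembles the immunoproteasome. It had 221, 222 and 213 CPM in PEox libraries 1 to 3, against 412, 425 and 437 CPM in vehicle libraries 1 to 3. The groups were far apart, and its log2 fold change of -0.96 (adjusted p = 3.29e-06 by edgeR, SE 0.04) was the lowest of this list. Ube3c, a ubiquitin ligase gene, rose with a log2 fold change of 0.94 (adjusted p = 0.000155 by edgeR, SE 0.10). Zfand2a and Ubqln4, genes of a stress-induced zinc finger protein and a shuttle factor, rose with 0.80 (adjusted p = 0.000631 by edgeR, SE 0.11) and 0.72 (adjusted p = 0.000814 by edgeR, SE 0.10). Adrm1, the gene of the ubiquitin receptor Rpn13, did not pass, at 0.01.

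Of 6 genes of ubiquitin and the enzymes that charge it, 3 fell, 2 rose and 1 did not pass. Their median log2 fold change was -0.36, or -0.28 with the trend removed. Shares over all genes were 18.8% lower and 18.3% higher, or 29.6% and 30.9% among those of at least 5 CPM in 3 libraries. Rps27a, which encodes ubiquitin joined to a ribosomal protein, fell with a log2 fold change of -1.22 (adjusted p = 2.86e-06 by edgeR, SE 0.06). Ubb, a polyubiquitin gene, had 2799.6, 2557 and 2544 CPM in PEox libraries 1 to 3, against 4419.5, 4271 and 4269.9 CPM in vehicle libraries 1 to 3. It fell without overlap, with a log2 fold change of -0.71 (adjusted p = 1.11e-05 by edgeR, SE 0.04). Uba1, which encodes the main activating enzyme of ubiquitin, rose with 0.76 (adjusted p = 9.06e-05 by edgeR, SE 0.07), and Uba6 with 0.51. Uba6 was, without the trend, at 0.22 and not called (edgeR adjusted p = 0.267).

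Interferon and MHC class I genes, which neighbour the immunoproteasome in function, were lower in 9 of 14 cases and higher in 4. Their median log2 fold change was -0.36, or -0.40 when the trend was taken out. The class I genes listed were B2m, Nlrc5 and genes of peptide trimming, transport and loading, with no gene of the class I heavy chains. Calls then numbered 11 in place of 13, with Erap1 and Stat2, both higher before, no longer called. Over all genes 18.8% were lower and 18.3% higher, and among those of at least 5 CPM in 3 libraries 29.6% and 30.9%. Ifng, the interferon gamma gene, had 2.09, 1.96 and 0.91 CPM in PEox libraries 1 to 3, against 17.6, 15.5 and 17.04 CPM in vehicle libraries 1 to 3. The PEox libraries lay far below, and the log2 fold change was -3.34 (adjusted p = 8.85e-05 by edgeR, SE 0.31). Irf1, a factor known to act on the Psmb9 and Tap1 promoters, fell with -0.86 (adjusted p = 4.48e-06 by edgeR, SE 0.04). Ifngr1, a chain of the interferon gamma receptor, rose with 0.70 (adjusted p = 4.11e-05 by edgeR, SE 0.06). Tap1 and Tap2 encode the subunits of the peptide transporter and lie beside Psmb8 and Psmb9. Tap1 fell with a log2 fold change of -0.38, and Tap2 did not pass, at 0.17.

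Some member counts may include reads of other genes. In the GENCODE M21 annotation, exons of 15 members share bases with another gene. They share, among others, 21.2% of Psmc3ip exon bases with Mlx, 10.1% of Psmd13 with Sirt3, 9.68% of Psmg3 with Gm26938, 14.7% of Psmb8 exon bases with the antisense gene Gm20496, 5.79% of Psmb9 with Tap1, 11.8% of Psmb7 with Nek6, 12.1% of Psmb5 with a microRNA gene and 25.5% of Psmd9 with Gm26745. Whether reads were counted by strand was not given in the sources used here. Pseudogenes of Psmb5, Psmb6 and Psmb7 had 4 rows of their own with at most 0.187 CPM in any library.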

How the data were processed

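The authors deposited 1 table of unnormalized counts, whole numbers for 55401 Ensembl identifiers in 3 PEox and 3 vehicle libraries. Per the labels' protocols, paired reads were cleaned with fastp and aligned with HISAT2 2.0.5, and edgeR 3.22.5 appears in the submitters' processing notes. The read counter, build, annotation and strandedness are not given in the sources used here. Columns were matched to samples by title. Symbols came from a reference list of gene names, which covered 55141 identifiers. Biotypes and transcript lengths came from GENCODE M21 (the longest transcript of the gene's own biotype), which gave lengths to 99.9% of tested genes.

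The main fit used edgeR 4.0.16 under R 4.3.3. Genes were kept by filterByExpr, libraries were scaled by TMM (factors 0.951 to 1.05), and the groups were compared, PEox over vehicle, by robust quasi-likelihood tests with Benjamini-Hochberg adjustment over 18253 genes at a threshold of 0.05. The fit and the trend removal were also run on counts simulated from the means and spread of these libraries, which checks the code alone. SEs were obtained by dividing a log2 fold change by the root of its F value. Alternatives were RLE scaling, library size scaling, other filters, a replicate block, DESeq2 1.42.0, limma-voom (limma 3.58.1), removal of loess trends (span 0.5) on length and GC content, and leaving out each library. The members, gene lists and named genes were chosen with earlier results of these data known. Values were printed for the catalytic and activator genes, the highest and lowest member by fold change of each other group and up to 4 genes with the smallest p of each related list; other genes named were chosen after their values were seen. A few genes of these lists enter the counts, sums and medians but are not reported here by name. Of the 17 genes listed as proteasome-bound 16, and of the 10 erythroid genes 9, were analysed here. Counts of library pairs within a group differed beyond sampling noise (chi-square per gene 16.5 to 38.2, against 263 to 338 between groups), so each library was kept as 1 replicate.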

Additional observations from a re-analysis of the deposited data

How the results depend on the processing

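The immunoproteasome genes, Psme1, Psme2, Psmb6, Psmd1 and Psmd2 kept their direction and their call under each of the alternatives run. So did Psma2, Psma6, Psma7, Psmb1, Psmb2, Psmb4, Psmd8, Psmd13, Psmd10, Psmg2, Psmg4, Psme2b and Psmc3ip. The number of members called lower ran from 20, with the length and GC trend removed (with or without the replicate block), to 32, with at least 5 CPM in 3 libraries. Members called higher ran from 4 to 10, the highest number with library size scaling. Leaving out each library in turn gave 25 to 31 lower and 4 to 5 higher members, and 5282 to 6577 called genes of all tested, against 6775. With the trend removed and the replicate block, 2199 of all genes were called higher, against 3337. Differences in log2 ratio without each library in turn ran from -0.59 to -0.50 for Psmb8/Psmb5, -1.22 to -1.15 for Psmb10/Psmb7 and -0.07 to -0.02 for Psmb9/Psmb6. Adding 1 to each count left them at -0.54, -1.17 and -0.04. The replicate block gave 27 lower and 5 higher members, with Psma3 losing its call, and the same 3 ratio differences. Deviations of same-numbered libraries from their group means correlated at -0.00583 to 0.0135, and libraries did not each correlate best with their own number. Whether same-numbered libraries shared a preparation was not given, and these values cannot decide it.

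Signs that turned were of members that had not passed, and the cause was not tested. With library size scaling the log2 fold change was 0.038 for Psma1, 0.0015 for Psmc1, 0.14 for Psmd11 (edgeR adjusted p = 0.0432), 0.085 for Psmd7, 0.0060 for Psmd9 and 0.076 for Psme3. With the trend removed it was 0.047 for Psma1, 0.0035 for Psmc1, -0.061 for Psmc6 and 0.092 for Psmd7, and with the block as well 0.048, 0.0023, -0.062 and 0.094. Psmd11 lay at 0.0053 with DESeq2, 0.0052 with RLE scaling and 0.00091 with limma-voom. Without each library in turn, values ran from -0.022 to 0.030 for Psmd11, -0.0033 to 0.078 for Psmc6, -0.046 to 0.15 for Psmg1 and -0.096 to 0.00081 for Psmd7. Psma8 had 0, 8 and 38 counts in PEox and 41, 36 and 0 in vehicle, a spread within each group as wide as its level, and Psmb11 had too few counts to be tested. An effect of transcript length on the counts and a change of short genes in the cells cannot be told apart here.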
